A study of Mus musculus with 4 samples.

Results

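The regions described here are the places in mouse cortex where the sites contacted by Elavl proteins were most tightly strung together under a spacing rule. Cortex peaks were sorted by chromosome, strand and start, peaks whose starts lay at most 200 nt from the previous start were chained, and chains of 5 or more peaks were kept. The rule kept 5 clusters of exactly 5 peaks each, 25 of the 97775 cortex peaks (0.0256%). They lay in Kcnip4, Btg1, Rac1, Strbp and Nrg3. The rule used the peak positions of the cortex list, and the members were chosen by those start positions. The number of clusters, their spacing and the peaks' p-values are therefore given as descriptions with no test.

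Elavl HITS-CLIP crosslinks protein to RNA with ultraviolet light, recovers the protein with its RNA, digests the RNA in part and sequences what is left. The 3 cortex samples had degenerate linkers of 25 nt and were represented by 1 common list whose name carries the term 2month. The N2A sample, a mouse neuroblastoma line, had a linker of 7 nt and a list of 7335 peaks. The sources used here do not give genotype, treatment, antibody or the animals' age, and a linker difference runs with the group. Because the samples of cortex share their list, the spread between them is unknown, as is depth, since read counts are not part of the lists.

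Elavl1, also called HuR, is made in most cell types, whereas Elavl2, Elavl3 and Elavl4 are made mainly in neurons. These proteins carry RNA recognition motifs and bind U-rich and AU-rich stretches, in 3′ untranslated regions of mature messages, where they affect stability and translation, and in introns of nuclear transcripts, where they affect splicing. Peaks in both lists were 50 to 51 nt wide, and the p-value of each peak came from the authors' peak calling. Peaks were ranked by it inside their own list, and smaller values are called stronger. Sequence under the clusters, exons and untranslated regions were not analysed here. None of the clusters touched a promoter window or a microRNA hairpin of the RefSeq tables (0 of 5 for each). The share over all cortex peaks was not computed, so this is not read as a trait of the clusters. Rac1 had no promoter window in these tables.

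The clusters were strings of separate peaks, a property of the whole cortex list and not of the clusters. Cortex peaks were at most 51 nt wide and the smallest step was 52 nt, so none on the same strand could overlap. The clusters spanned 549 to 707 nt, with a median of 657 nt. The peaks themselves covered 35.9% of the Strbp cluster, the most open one, to 46.3% of the Rac1 cluster, the tightest. The 20 steps between neighbouring starts ranged from 82 to 189 nt with a median of 154 nt. Over the whole cortex list the median step was 2175 nt, the smallest 52 nt, and 6.10% of steps were 200 nt or less. No cortex peak lay on the opposite strand within any of the 5 spans.

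**Figure D1:**
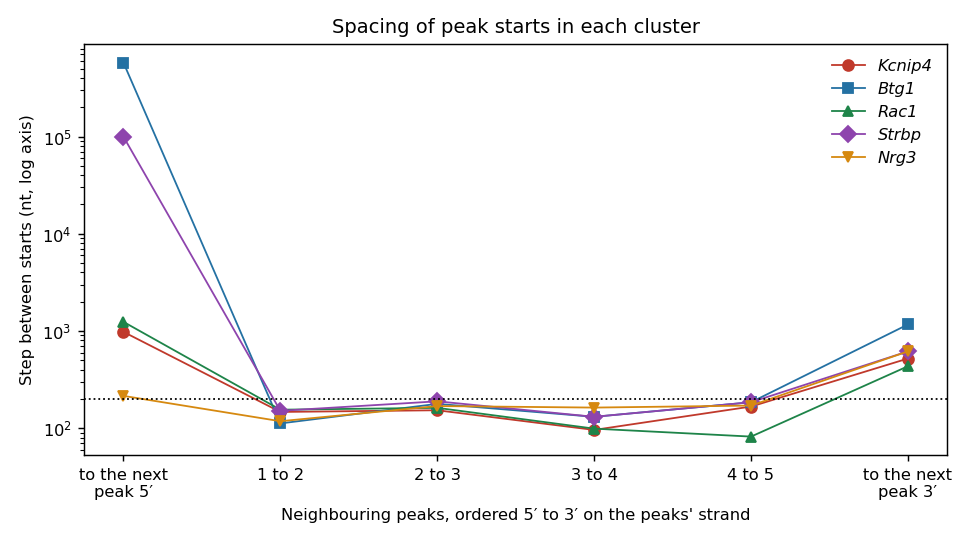
Step in nt between the starts of neighbouring cortex peaks (log axis) for the 5 clusters, ordered 5′ to 3′ on the peaks' strand, with the steps to the next peak outside at each end and a dotted line at the 200 nt limit. The 20 steps inside lie between 82 and 189 nt, and the smallest step outside, 215 nt on the 5′ side of the Nrg3 cluster, lies just over the line.

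Each cluster combined at least 1 strong peak with weaker ones. The 25 peaks had p-values from 2.48e-47 in Kcnip4 to 0.0937 in Btg1, with a median of 0.00816, close to the median of 0.00972 over all cortex peaks. A p under 0.05 was listed for 17 of the 25 (68.0%, Wilson 95% interval 48.4 to 82.8, for counting error alone), against 75450 of the other 97750 cortex peaks (77.2%, 76.9 to 77.4). Peaks of 0.05 or more were found in every cluster, 3 in Strbp, 2 in Rac1 and 1 in each of the others. Peaks of a cluster share a transcript and are not replicates. The strongest peak held no fixed place. Counted from the 5′ end it was the first in Btg1 and Rac1, the third in Strbp, the fourth in Nrg3 and the fifth in Kcnip4.

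**Figure D2:**
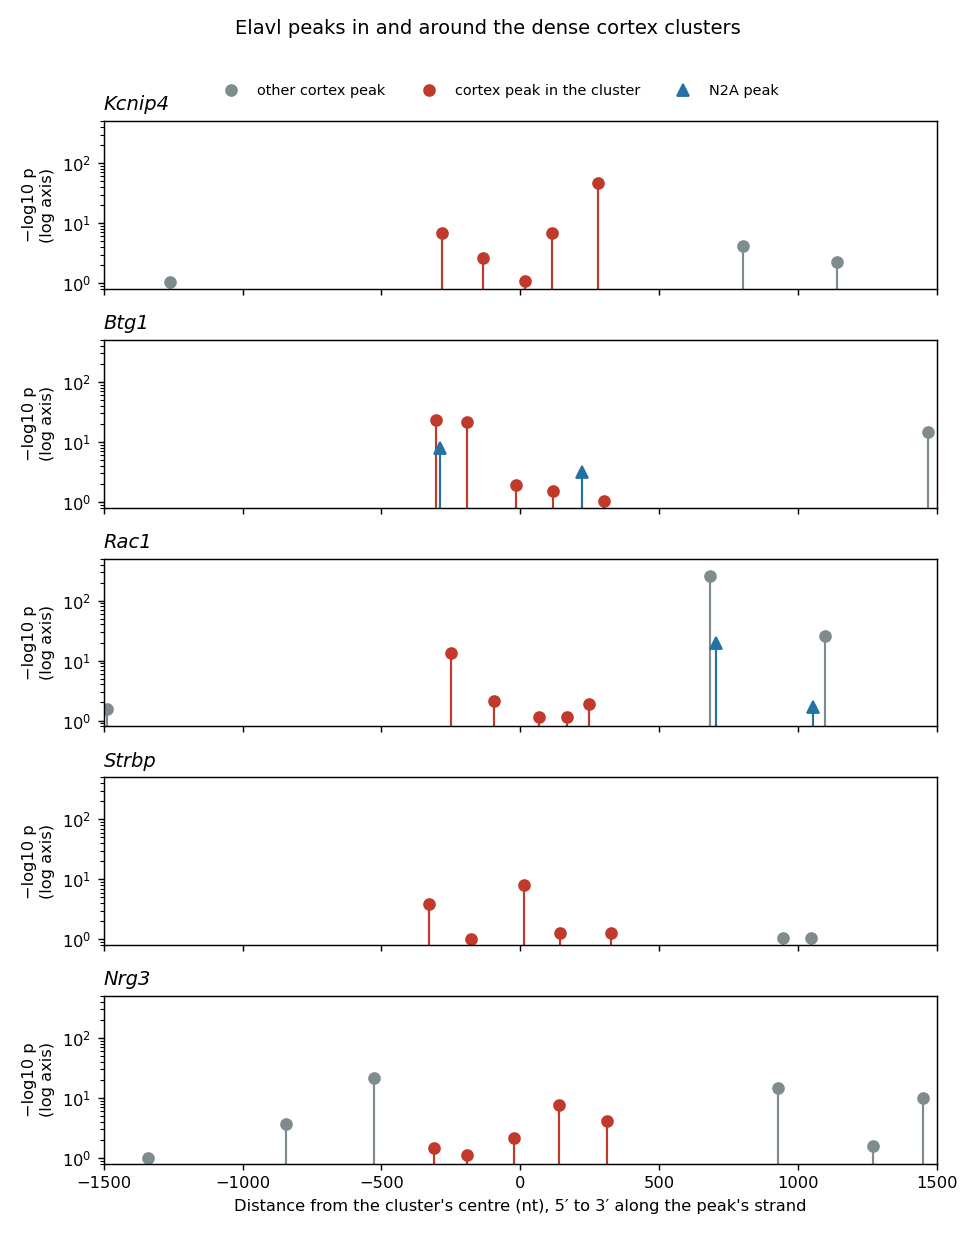
Strength of Elavl peaks (−log10 of the authors' p, log axis) against distance in nt from the centre of each cluster, 5′ to 3′ along the peaks' strand, for cortex peaks in the cluster (red), other cortex peaks (grey) and N2A peaks (blue triangles). N2A peaks fall inside the Btg1 cluster alone, and in Rac1 the 2 N2A peaks lie on the 3′ side, beside the stronger cortex peaks outside the cluster.

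By gene, the hosts were of different lengths and functions. The rule found 1 cluster in each of 5 of the 8448 coding genes with a cortex peak (0.0592%). The clusters in Btg1 and Rac1 lay within 5 kb of the end of genes of 5.81 and 22.6 kb. Those in Kcnip4, Nrg3 and Strbp lay in the first 3.53% to 10.2% of genes of 1136, 1108 and 134 kb, on the peaks' strand, far from the gene end. Distances were taken to the end of the gene span, which may differ from the end of the transcript made in cortex.

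Btg1 belongs to the BTG/TOB family of antiproliferative proteins, which bring the CCR4-NOT deadenylase to messages. Its cluster spanned chr10:96618671-96619328 on the plus strand (GRCm38, as deposited), 1.67 kb from the gene start and 3.49 kb from its end. From 5′ to 3′ the p-values were 1.18e-23, 2.18e-22, 0.0130, 0.0289 and 0.0937. The cluster opened with the strongest and next strongest of the 11 Btg1 peaks and closed with the weakest. The steps were 112, 178, 131 and 185 nt. Upstream, no further cortex peak was found within the gene. On the 3′ side the nearest peak began 1167 nt away with a p of 1.57e-15, the third strongest of Btg1. All 6 of the peaks outside the cluster also lay within 5 kb of the gene end, in a gene of only 5.81 kb. With 1.89 peaks per kb Btg1 was the most densely marked of the 5 host genes.

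Btg1 was the single host whose cluster also held N2A peaks. The N2A list gave Btg1 2 peaks, and both fell inside the cluster's span. The stronger, at 96618686 to 96618737 with a p of 1.47e-08, shared 36 nt with the strongest cortex peak. The weaker, at 96619196 to 96619246 with a p of 0.000663, overlapped no cortex peak and lay between the fourth and the fifth. Its start lay 81 nt before the start of the fifth. The other 6 cortex peaks of Btg1, the one with a p of 1.57e-15 included, overlapped no N2A peak. P-values of the lists were not compared with each other.

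Rac1 encodes a small GTPase that drives actin assembly in growth cones and dendritic spines. Its cluster, chr5:143506354-143506903 on the minus strand, was the shortest at 549 nt and lay 0.873 kb from the gene end. From 5′ to 3′ the p-values were 4.69e-14, 0.00816, 0.0693, 0.0693 and 0.0131. The first of these peaks was thus the strong one, and the pair with equal values were the weaker ones of the cluster. The steps shortened from 155 and 162 nt to 99 and 82 nt in the 3′ part, and 82 nt was the smallest step in any cluster. The strongest Rac1 peak was not a member. It lay on the 3′ side, its start 434 nt from the start of the nearest cluster peak. Its place was 143505920 to 143505971, with a p of 7.63e-261, and another, at 143505507 to 143505557, had a p of 1.89e-26. The cluster thus lay on the 5′ side of the strongest peaks of the gene.

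In N2A cells that same stretch, but not the cluster, carried the Rac1 peaks. The N2A peak at 143505898 to 143505949 (p of 1.33e-20) shared 29 nt with the strongest cortex peak. The one at 143505548 to 143505598 (p of 0.0215) shared 9 nt with the next strongest. The gap from the edge of the nearer N2A peak to the edge of the cluster was 0.405 kb. This is not comparable with the 434 nt given above, which runs between starts. In all, the last 10% of the gene span held 7 of the 12 cortex peaks and both N2A peaks.

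Kcnip4 encodes a calcium-binding subunit of Kv4 potassium channels, which carry the A-type current of dendrites. It had the most cortex peaks of any coding gene, 809 on its own strand and 3 on the other. The cluster spanned chr5:49449055-49449669 on the minus strand, 75.5 kb from the gene start and 1060 kb from its end. From 5′ to 3′ the p-values were 1.87e-07, 0.00221, 0.0811, 1.24e-07 and 2.48e-47. The peaks weakened toward the middle and were strongest at the 3′ edge, where the last ranked 20th of the 809. The steps were 147, 153, 96 and 167 nt, against a median of 726 nt in the gene. No stretch of Kcnip4 beyond the cluster held a chain of 4, while 8 chains of 3, 46 of 2 and 688 single peaks were found.

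The peaks next to the Kcnip4 cluster were weaker than the members at its edges. The nearest peak on the 5′ side began 979 nt away (p of 0.0896), and the nearest on the 3′ side 521 nt away (p of 7.35e-05). The strongest Kcnip4 peak, with a p of 6.66e-270, lay at 49494456 to 49494507, nearer the gene start. With the span divided into 10 equal stretches, the stretch that held the cluster had 130 peaks, against 142 in the fullest, the one after it, a median of 89 and 4 in the emptiest. Only 1 of the 804 peaks outside the cluster lay within 5 kb of the gene end. The N2A list had 0 peaks in Kcnip4.

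Nrg3 encodes a neuregulin, a ligand of the receptor tyrosine kinase ErbB4, which is found on cortical interneurons. Its cluster spanned chr14:39359844-39360516 on the minus strand, 113 kb from the gene start and 995 kb from the end. From 5′ to 3′ the p-values were 0.0341, 0.0740, 0.00762, 2.76e-08 and 6.71e-05. By p these ranked 324th, 411th, 229th, 62nd and 125th of the 456 Nrg3 peaks. The strongest Nrg3 peak, with a p of 1.02e-95, lay at 39407368 to 39407419, on the side of the gene start.

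The Nrg3 cluster was also the one whose border depended most on the limit of the rule. The next peak on its 5′ side, at 39360680 to 39360731, began 215 nt away, 15 nt too far to be joined. That peak, with a p of 3.61e-22, was stronger than every member. On the 3′ side the next began 617 nt away and was likewise stronger, with a p of 1.37e-15. Within 1000 nt of its centre the Nrg3 cluster had 8 cortex peaks, more than the 5 or 6 around the other clusters. Of 10 equal stretches of the gene, the one that held it was the fullest, with 97 peaks against a median of 38.5. The N2A list had 0 peaks in Nrg3.

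Strbp encodes an RNA-binding protein with double-stranded RNA-binding domains, known from spermatids and also made in brain. Its cluster spanned chr2:37698799-37699506 on the minus strand, 4.37 kb from the gene start and 129 kb from the end. From 5′ to 3′ the p-values were 0.000118, 0.0935, 1.09e-08, 0.0560 and 0.0513. The first and the third peak were the strong ones, and Strbp was the single cluster in which most peaks had a p over 0.05. It was also the widest cluster, and its longest step, 189 nt, was the longest in any cluster. Toward the gene start, no further cortex peak was found within the span.

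The strongest Strbp peaks lay at the other end of the gene. The best, at 37583419 to 37583470 with a p of 9.19e-54, was 13.6 kb from the gene end and shared 28 nt with the single N2A peak of Strbp (p of 9.90e-21). That N2A peak was 115 kb from the cluster. Of 10 equal stretches of the span, the one at the gene end had 18 peaks, the most of any, against 13 in the one with the cluster. Among the 3 hosts with N2A peaks, Btg1, Rac1 and Strbp, the strongest cortex peak of the gene overlapped an N2A peak each time, inside the cluster in Btg1 and outside it in the other two.

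**Figure D3:**
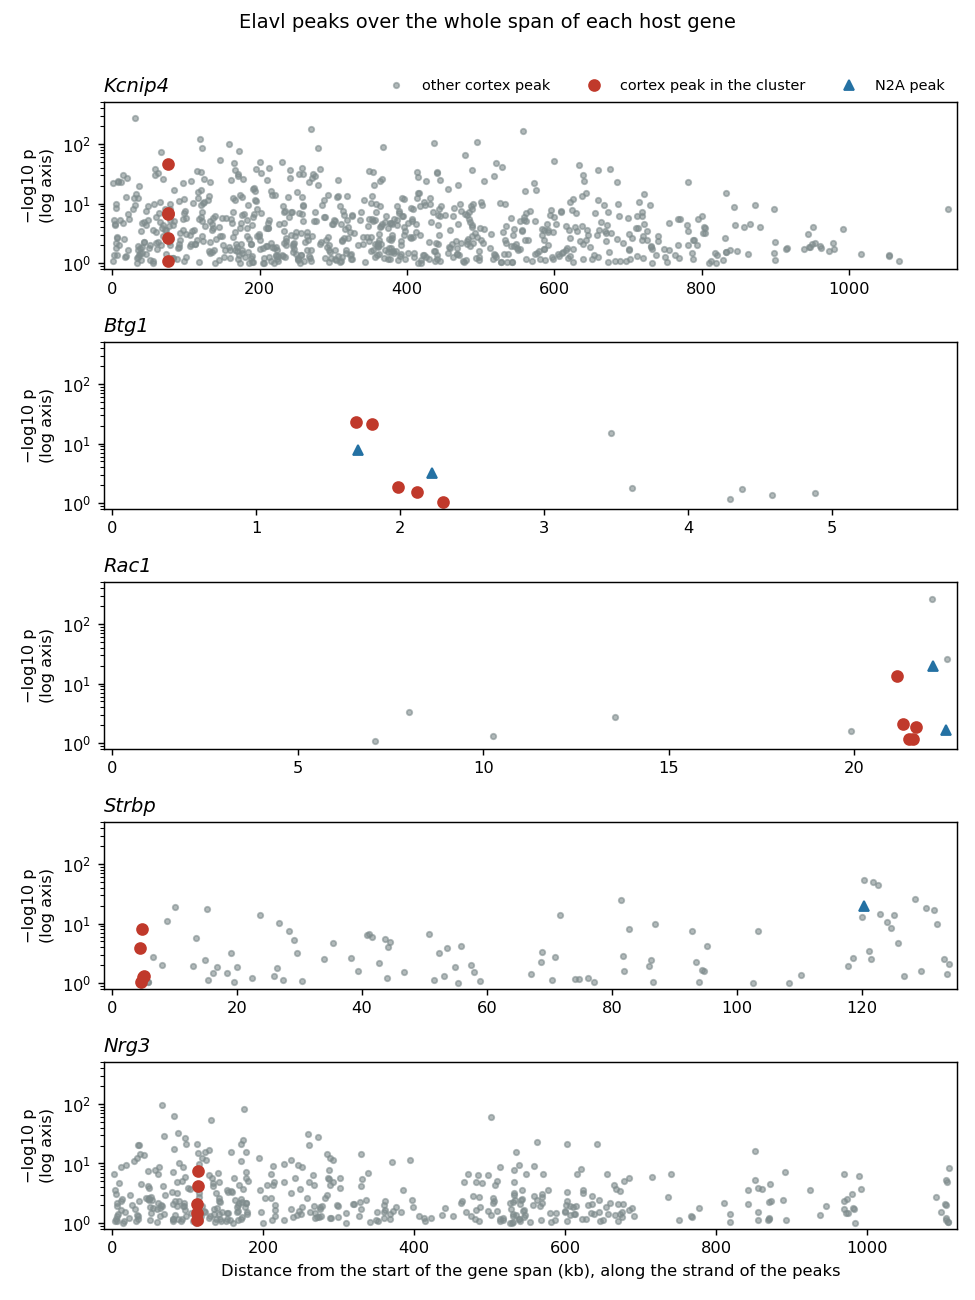
Strength of Elavl peaks (−log10 of the authors' p, log axis) against distance in kb from the start of the gene span for the 5 host genes, with cluster peaks in red, other cortex peaks in grey and N2A peaks as blue triangles. The clusters of Kcnip4, Strbp and Nrg3 lie near the start of spans with peaks throughout, that of Rac1 lies close to the end, and N2A peaks are shown for Btg1 (2), Rac1 (2) and Strbp (1).

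The position along the gene and the N2A list were not used by the rule. Within 5 kb of the gene end lay 2 of the 5 clusters (40%, Wilson 95% interval 11.8 to 76.9), and 10 of the 25 peaks. The same held for 25 of the 1369 other peaks of these genes (1.83%, 1.24 to 2.68), a share set by the many peaks of Kcnip4 and Nrg3, and for 17956 of the 91109 other cortex peaks that lay in 1 coding gene (19.7%, 19.5 to 20.0). An N2A peak overlapped 1 of the 5 clusters (20.0%, 3.62 to 62.4) and 1 of the 25 peaks, against 3 of the 1369 other peaks of the same genes and 3041 of the other 97750 cortex peaks (3.11%, 3.004 to 3.22). The clusters' interval near the gene end takes in the share of all other cortex peaks. The 2 clusters near a gene end were those of Btg1 and Rac1. In these genes 6 of 6 and 3 of 7 other peaks also lay within 5 kb of the end. Btg1 spans only 5.81 kb, so nearly any peak in it meets this limit. Its cluster lay nearer the gene start (1.67 kb) than the end (3.49 kb). With a window of 2 kb the share of clusters was 20%. The pooled 1.83% reflects the mix of genes and was not read as a difference from the clusters. For the N2A list, the share over single peaks, 4% (0.71 to 19.5) of the 25, takes in that of all other cortex peaks. Peaks of a cluster are not replicates, so this interval covers counting error alone. The pooled share of the other peaks of the same genes (0.219%, 0.0746 to 0.642) again reflects the mix of genes. Kcnip4 and Nrg3, with 804 and 451 of these peaks, had 0 N2A peaks. Outside the clusters, 2 of 7 peaks in Rac1, 1 of 101 in Strbp and 0 of 6 in Btg1 overlapped an N2A peak. The N2A shares of the clusters and of the 25 peaks both rest on the Btg1 cluster alone. A cluster offers more RNA to overlap than 1 peak does, and no test was run.

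Chains just short of the rule were 39 chains of 4 peaks. Of these 35 lay in 1 coding gene, and 18 of the 35 were within 5 kb of its end (51.4%, 35.6 to 67.0). An N2A peak overlapped 8 of the 39 (20.5%, 10.8 to 35.5). Every p was under 0.05 in 26 of the 39 chains of 4, against 0 of the 5 clusters. This asks more of 5 peaks than of 4, with 77.2% of all cortex peaks under 0.05, and the contrast was not tested. By strongest peak the first were in Rn18s-rs5, a ribosomal RNA-like sequence (lowest p of 6.87e-102), Lifr, a cytokine receptor subunit (1.53e-55), Zfp354c, a zinc finger protein (4.74e-41), and Tfdp1, the dimer partner of E2F factors (6.31e-38). The first and the second of these were stronger than the best cluster peak. In Calb1, which encodes the calcium buffer calbindin, all 4 peaks of the chain had a p of 2.83e-14 or lower (this gene was chosen after its values were seen).

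From single peaks to chains of 4, the share near the gene end ran from 18.4% to 28.9%, 34.1% and 51.4%, and the share touching an N2A peak from 2.95% to 7.99%, 12.9% and 20.5%. The clusters of 5, at 40% and 20%, lay within the intervals of the chains of 4. A longer chain covers more RNA and has more chances to touch an N2A peak, and the part of this in the shares was not tested.

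**Figure D4:**
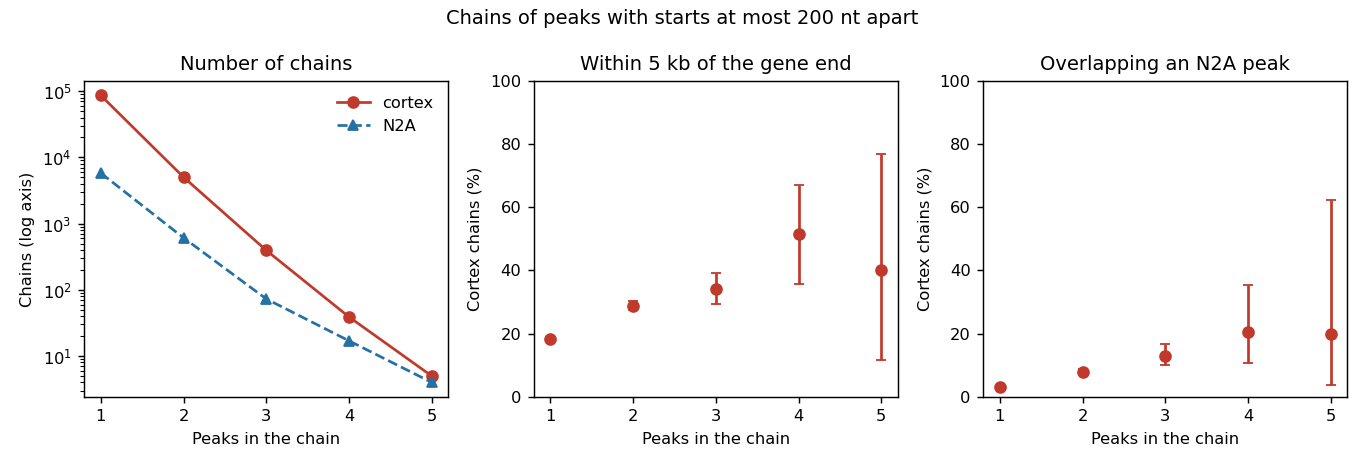
Chains by the number of peaks in them, with the number of chains in cortex and N2A (left, log axis), the share of cortex chains in 1 coding gene that lay within 5 kb of its end (middle) and the share overlapping an N2A peak (right), bars being Wilson 95% intervals. Cortex chains fall from 86347 single peaks to 5 clusters of 5, whose bars span 11.8% to 76.9% and 3.62% to 62.4%.

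Applied to the N2A list, the same rule kept 4 clusters of 5 peaks, and none of them lay in a cortex host gene. Only 5 of the 8448 coding genes with a cortex peak (0.0592%) were hosts. With so few clusters and hosts, the lack of a shared gene says little about the lists. One lay on chromosome 6 at 72432859 to 72433524 in overlapping genes. The others lay in Ube2w, a ubiquitin-conjugating enzyme, Rere, a transcriptional corepressor, and Etnk1, an ethanolamine kinase. Cortex peaks overlapped each of the 4, with 1 or 2 peaks. The N2A chains of 4 with the lowest p, in Ppp2ca, Atad1, Lbr and Spcs2, also each overlapped 1 cortex peak. The share over all N2A chains was not computed, so the overlap is not read as particular to clusters of 5. Clusters of 5 held 20 peaks out of 7335 in N2A and 25 out of 97775 in cortex, and whether their places differ was not tested.

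Among 26 lists of neuronal, RNA-binding, housekeeping and cell type marker genes, with 461 genes in all, 399 had a cortex peak and 1 held a cluster, namely Kcnip4 of the 31 voltage-gated channel genes. In the other 25 lists the count was 0, markers of excitatory neurons, interneurons, astrocytes, oligodendrocytes, microglia and endothelium included. Over all coding genes with a cortex peak the share was 5 of 8448 (0.0592%). At that share, a count of 0 in lists this small says nothing about a cell type or function. A chain of 4 or more was held by 5 of the 399 listed genes with a cortex peak, Kcnip4 included. Over all coding genes with a cortex peak it was 38 of 8448 (0.45%), and the contrast was not tested. The others were Celf2, a splicing regulator, Hnrnpc, which binds U-rich RNA in the nucleus, Kcnd2, a Kv4 channel pore, and Cadm2, a synaptic adhesion molecule. In that order they had 353, 26, 472 and 501 cortex peaks, against 812 in Kcnip4.

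Close relatives and partners of the 5 host genes, chosen once the hosts were known, held no cluster of 5. Of 28 such genes 19 had a cortex peak. Kcnd2, the Kv4 pore that Kcnip4 protein binds, had 472 peaks and a chain of 4, and of the other Kv4 subunits Dpp10 had 378 and a chain of 3 and Dpp6 138 and chains of at most 2. Nrg1, a neuregulin like Nrg3, had 226 and a chain of 4, and their receptor gene Erbb4 167 and chains of at most 2. Kcnip1, Kcnip2 and Kcnip3, the paralogs of Kcnip4, had 2, 4 and 5 cortex peaks with no chain. Of the relatives of Btg1 and Rac1, Btg2 and Tob1 had 2 cortex peaks each, and Rac2 and Rac3 had 0. Cdc42, a small GTPase like Rac1, had 15 cortex peaks and 7 N2A peaks, and Zfr, related to Strbp, had 48 and 6. Kcnd2 and Nrg1 were the only ones of the 28 with a chain of 4, where 0.45% of all coding genes with a cortex peak held a chain of 4 or more, and no test was run on this chosen set.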

How the data were processed

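The authors aligned reads with Novoalign, per the submitters' processing notes, which give no version and name the build hg19. The chromosome names are those of mouse, and coordinates were read as GRCm38. The sources used here do not state whether they count from 0 or 1, nor the peak caller, its filters or the merging of samples. The deposited lists give each peak's position, strand, label and p-value, and the authors' p-value may or may not be adjusted.

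Chains, distances and overlaps (at least 1 nt, same strand) were computed with Python 3.11.15 and pandas 2.3.3, and tested on simulated data with planted chains. Genes are spans of the RefSeq table of GRCm38.p6 (49997 genes). A region went to the single coding gene touched, else to a single other gene. Genes were matched without regard to strand, and the gene end was set by the strand of each peak or chain. A peak on the strand opposite its gene was thus measured to the gene's start. For Kcnip4, Btg1, Strbp and Nrg3 the clusters' strand was that of the RefSeq promoter table. Rac1 had no entry there, and its peaks were all on 1 strand. Intervals are Wilson 95% intervals for counting error only, and PCR reads are not independent molecules. Named by rule were the clusters with the most peaks (ties by lowest p), their host genes, those with N2A peaks, listed genes with clusters, and the chains of 4 with the lowest p. The members and lists were chosen with earlier results of these data known. Alternatives varied step, chain length, p, strand, merging, windows and overlap. Sequence and exons were not analysed here.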

Additional observations from a re-analysis of the deposited data

How the results depend on the processing

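The clusters depended closely on the rule. With a step of 100 nt, with 6 or more peaks, or with only peaks of p under 0.05, there were 0 clusters, 0 peaks (0% of the list) and 0 host genes, and no shares could be computed. These outcomes were fixed in advance, because every cluster had 5 peaks, a step over 100 nt and a peak of p 0.05 or more. A step of 300 nt gave 50 clusters with 259 peaks (0.265%) in 44 genes. Chains of 4 or more gave 44 clusters with 181 peaks (0.185%) in 40 genes. Counting 5 starts within any 800 nt, a choice made after seeing the data, gave 36 runs with 201 peaks (0.206%) in 33 genes, and 1000 nt gave 163 runs with 882 peaks (0.902%) in 134 genes. Ignoring strand gave 7 clusters. Merging overlapping peaks left 5, an outcome fixed in advance because no cortex peaks of 1 strand overlapped. The share near the gene end ran from 20.0% to 61.3% and the share with an N2A peak from 20.0% to 36.1% over the alternatives that gave clusters, both highest with the 800 nt window and within the wide intervals of the values reported. No paired analysis was possible because the cortex samples share 1 list, and for the same reason no sample could be left out. Depth is unknown, so a place with fewer peaks cannot be told apart from one with fewer reads.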

Other observations

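Dense runs outside the 5 clusters were found when the window, rather than each step, was limited (a choice made after seeing the data). Of 36 runs with 5 starts within 800 nt, overlapping windows joined, 5 held the clusters and 31 did not. The longest lay in Vma21, an assembly factor of the vacuolar proton pump, on the plus strand of chromosome X at 71820960 to 71823053. It held 11 peaks over 2093 nt, 10 of them with a p under 0.05 (lowest p of 1.03e-12), ended 1.65 kb from the gene end and touched 1 N2A peak, and its longest chain at a step of 200 nt was 3. There were 4 runs of 7 peaks. The one in Rn18s-rs5, a ribosomal RNA-like sequence, had every p under 0.05 (lowest p of 1.83e-297) and 6 N2A peaks. Those in Atxn1, the gene of ataxin-1, in Slc16a7, a monocarboxylate transporter, and outside all genes on chromosome 9 had 0 N2A peaks, and the first and second of these lay 1.05 and 2.18 kb from the gene end. In Actr3, a subunit of the Arp2/3 actin nucleator, 6 peaks lay within 859 nt at the gene end, each with a p of 0.00710 or lower, and 2 N2A peaks fell among them. At a step of 300 nt, a chain of 6 peaks also lay in Homer1, a postsynaptic scaffold (lowest p of 4.69e-09).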
